A study of Homo sapiens with 12 samples.

Results

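The genes described here encode the enzymes that break down amino acids and the enzymes of the urea cycle. They were chosen by symbol: rows of the deposited count table were taken where the gene identifier, with its version removed, maps to a named enzyme of these pathways. All 43 named genes were found among the 62475 gene identifiers of the table, with 1 identifier each. They fall into 8 pathways: histidine breakdown; the methionine cycle with choline-derived methyl groups and transsulfuration; tyrosine breakdown; tryptophan breakdown; the urea cycle; glutamine, proline and ornithine; serine and glycine; and lysine with the branched-chain amino acids.

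Surplus amino acids are broken down mainly in hepatocytes, which remove the nitrogen and pass the carbon skeletons to glucose, ketone bodies or oxidation. The freed ammonia enters the urea cycle, which builds urea from ammonia, bicarbonate and aspartate and is shared between the mitochondrion and the cytosol. In liver, many of these enzyme genes are known to respond to glucagon and cAMP, the signal that activates protein kinase A (PKA), during fasting.

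RNA sequencing was done on total RNA from HepG2 cells, a human liver cancer line that keeps many hepatocyte genes but is known for an incomplete urea cycle. The 12 libraries form 4 groups of 3 biological replicates: wild-type HDAC1 (WT) and the HDAC1_S434A mutant (S434A), each kept without H89 (called untreated here) or given H89. HDAC1 is a class I histone deacetylase, S434A replaces a serine by an alanine, and H89 is a small-molecule inhibitor of PKA that also acts on other kinases. The sources used here do not give how the WT and mutant cells were made, whether they are clones, or the dose and duration of H89. In counts of whole-cell RNA, fewer expressing cells and less RNA per cell cannot be told apart.

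Total counts ran from 27763604 to 37187794 per library in untreated WT and from 17562754 to 22648485 in the other groups. The replicates of untreated S434A differed widely from each other. The biological coefficient of variation, the relative spread between replicates, was 0.351 in that group against 0.0191 to 0.0734 in the other groups. The share of counts from mitochondrially encoded genes was 1.48% to 1.51% in untreated WT, 4.91% to 6.26% in H89-treated WT, 3.16% to 7.02% in untreated S434A and 5.57% to 5.94% in H89-treated S434A. Ribosomal protein genes made up 19.4% to 20.0% of counts in untreated WT and 7.37% to 11.5% in the other groups. In replicates 1, 2 and 3 of untreated S434A the mitochondrial shares were 7.02%, 4.09% and 3.16%. Their ribosomal protein shares were 9.5%, 9.6% and 11.5%. The part of these shares and of sequencing depth in the results was not tested. A set of 14 hepatocyte markers was present, with summed levels of 92373 to 92874 CPM (counts scaled to library size) in untreated WT, 52504 to 57539 in H89-treated WT, 49112 to 69022 in untreated S434A and 53161 to 53732 in H89-treated S434A. Of the fibroblast markers 1 of 8 was detected well enough to be tested, of the blood and endothelial markers 3 of 9, and of the kidney and intestine markers 1 of 8, and their summed levels stayed between 12.4 and 42.8 CPM in every library, with COL1A2, DCN, THY1, PTPRC, CD3E, HBB, KDR, UMOD, SLC12A1 and SI at 0 counts throughout. Because the mutation changes 1 codon, the level of HDAC1 in these counts does not check the genotype labels.

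With H89, RNA of most of these enzymes was lower in both genotypes. Parentheses below give log2 fold changes with their standard error (SE). The 43 genes together reached 5815 ± 34 CPM in untreated WT, 3184 ± 72 in H89-treated WT, 4699 ± 227 in untreated S434A and 3169 ± 39.7 in H89-treated S434A (mean ± SD, n = 3 each), so on this TMM-scaled measure the WT libraries without H89 held the most and the H89 libraries of both genotypes the least. The 3 abundant genes AHCY, GLUD1 and HPD made up 49.9% to 57.9% of that sum in a library. Untreated S434A lay between, with its 3 libraries from 4546 to 4960 CPM against 5776 to 5838 in untreated WT. As a share of the deposited counts, without this scaling, the genes made up 0.485% to 0.488% in untreated WT and 0.472% to 0.497% in untreated S434A, which overlapped, and 0.337% to 0.348% in the 6 H89 libraries. Single genes such as CPS1, AASS, SARDH and AGXT did not follow the order of the sum, as the heat map shows.

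**Figure D1:**
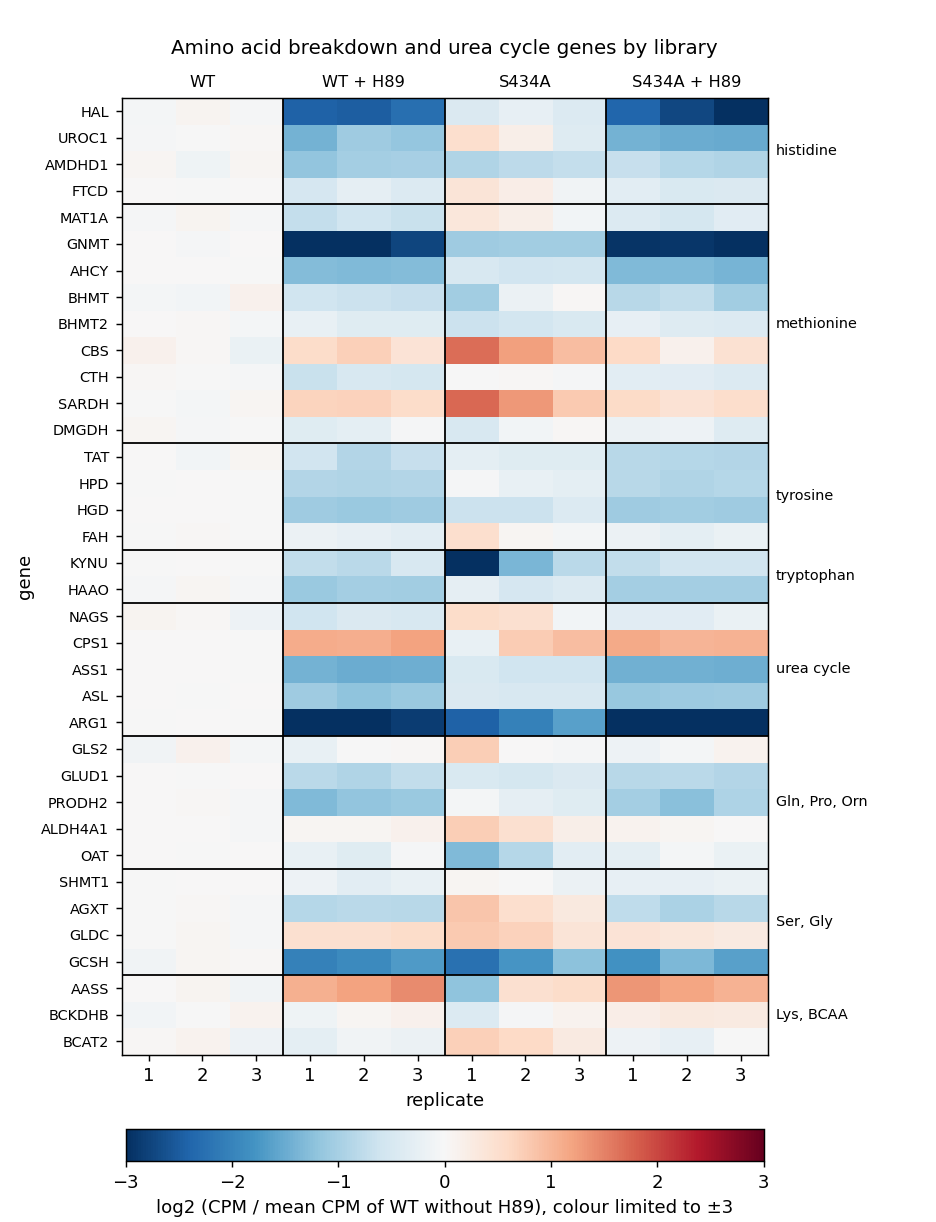
Level of each tested gene in each of the 12 libraries, as log2 of its CPM over the mean CPM of untreated WT, with genes in rows by pathway and libraries in columns by group and replicate number. The colour scale is limited to ±3; most rows are below 0 in the 6 H89 libraries, while CPS1 and AASS are above 0 there.

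A total of 36 of the 43 genes had enough counts to be tested. The test was edgeR's quasi-likelihood test over 14434 genes with Benjamini-Hochberg adjustment, and a gene is said to have risen or fallen where its adjusted p was under 0.05 at any fold. The fit shares each gene's spread over the 4 groups, so SE and p in comparisons with untreated S434A can be too small. In comparisons without that group they can be too large. With only the compared groups fitted, 1171 of 13787 genes rose and 1572 fell with H89 in S434A, in place of 4223 and 3282. Between the untreated genotypes 4491 were then higher and 2478 lower, in place of 4186 and 4232. For H89 in WT 5936 of 14155 then rose and 5659 fell, in place of 5597 and 4466. In the fit of all 4 groups, 23 of the 36 fell and 5 rose with H89 in WT, where 30.9% of all genes tested fell and 38.8% rose. The median log2 fold change of the 36 was -0.65, against 0.20 over all genes. With H89 in S434A, 25 fell and 4 rose, against 22.7% and 29.3% of all genes, and the medians were -0.53 and 0.01. With scaling by DESeq2's median-of-ratios factors (RLE) in place of TMM, the split in S434A was 26 and 1. The 4 rises in S434A were the least firm count, from 0 to 6 when each library in turn was left out. In untreated S434A against untreated WT, 16 were lower and 7 higher, against 29.3% and 29% of all genes, with medians of -0.17 and -0.04. The libraries of the groups compared did not overlap, with the treated or mutant group lower or higher, for 26 and 6 of the 36 genes with H89 in WT (35.5% and 47.6% of all genes), for 24 and 6 in S434A (23.2% and 33.1%) and for 17 and 6 between the untreated genotypes (33.7% and 29%). Lower between the untreated genotypes thus held for a larger part of the members than of all genes, and higher for a smaller part.

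At the study's threshold of a fold over 2 the counts were smaller. In WT, 12 genes fell and 2 rose by over 2-fold with H89, where 15.8% of all genes fell and 22.2% rose that far. In S434A, 5 fell and 1 rose, against 2.35% and 15.2%. Between the genotypes without H89, 4 were lower and 2 higher in S434A, against 11.3% and 11.6%. The rises over 2-fold were not seen once each library was corrected for the way its counts depend on GC content and length: none of the 36 then rose over 2-fold in these 3 comparisons, where 16.4%, 3.15% and 6.21% of all genes did. In the same fit 10 fell over 2-fold with H89 in WT and 5 in S434A, and 2 were lower in untreated S434A, against 12.4%, 3.43% and 5.08% of all genes. Of these, KYNU in WT and ASL between the untreated genotypes had not been called over 2-fold before.

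The H89 comparisons in WT and in S434A share no library, so their calls can be set against each other. A set of 19 genes fell in both, which is 82.6% of the 23 that fell in WT and 76.0% of the 25 that fell in S434A. Of all genes tested 15.9% fell in both, which is 51.3% of those that fell in WT and 69.7% of those that fell in S434A. It covers every pathway except lysine and branched-chain breakdown: HAL, UROC1 and FTCD of histidine breakdown, MAT1A, GNMT, AHCY and CTH of the methionine pathway, TAT, HPD and HGD of tyrosine, HAAO of tryptophan, NAGS, ASS1, ASL and ARG1 of the urea cycle, GLUD1 and PRODH2, and SHMT1 and AGXT. AASS rose in both. CBS, SARDH and GLDC rose in WT and fell in S434A, and BHMT2 fell in WT and rose in S434A. After this correction the set that fell in both held 21 genes, where 14.3% of all genes did, and of the genes with opposite calls SARDH kept them, while CPS1 gained such a pair of calls.

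**Figure D2:**
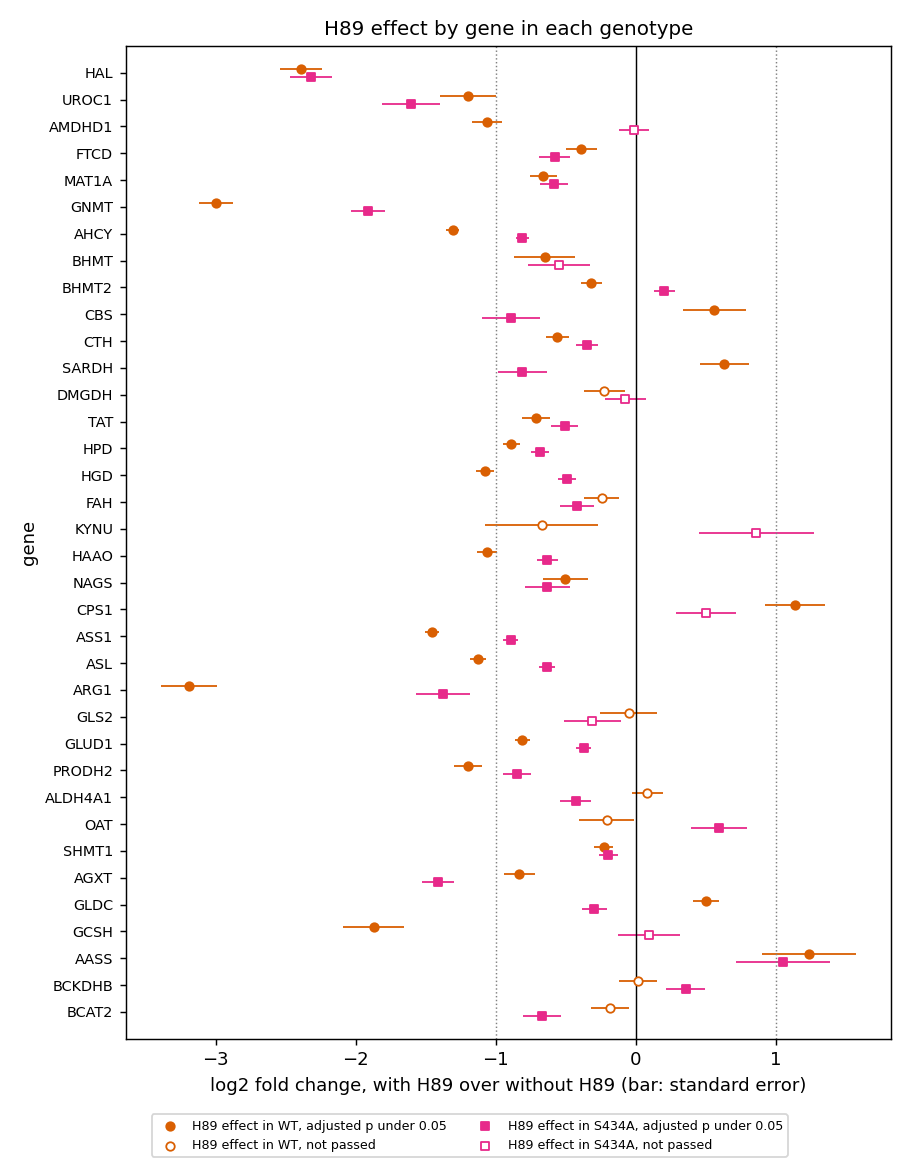
Log2 fold change with H89 over without H89 for each tested gene, in WT and in S434A, with standard errors as bars and dotted lines at a 2-fold change. Points left of 0 are lower with H89; ARG1, GNMT and HAL lie farthest left in WT, at -3.19, -3.0 and -2.39.

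The 3 genes with the deepest falls in WT differ in the DNA before their start sites. Their 250 bases upstream of the annotated start (RefSeq, GRCh38.p14) are shown because this is where the cAMP-responsive factor CREB binds in many genes. HAL lies at chr12:95996345-95996594 on the minus strand, GNMT at chr6:42960504-42960753 and ARG1 at chr6:131572976-131573225, both on the plus strand. Each is written 5′ to 3′ toward the start site. Capitals mark TGACG, the core of a cAMP response element, or TATAAA, the core promoter box that the basal machinery binds.
HAL: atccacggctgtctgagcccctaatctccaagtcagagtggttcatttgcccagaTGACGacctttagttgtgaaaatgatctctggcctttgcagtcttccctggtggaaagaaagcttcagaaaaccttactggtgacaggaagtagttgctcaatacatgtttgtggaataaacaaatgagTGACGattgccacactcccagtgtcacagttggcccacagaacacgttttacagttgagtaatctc
GNMT: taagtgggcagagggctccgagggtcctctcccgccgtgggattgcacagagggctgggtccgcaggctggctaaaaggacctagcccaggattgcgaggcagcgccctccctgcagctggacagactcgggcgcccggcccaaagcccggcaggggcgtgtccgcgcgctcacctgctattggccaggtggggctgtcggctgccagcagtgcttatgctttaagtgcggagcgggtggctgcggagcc
ARG1: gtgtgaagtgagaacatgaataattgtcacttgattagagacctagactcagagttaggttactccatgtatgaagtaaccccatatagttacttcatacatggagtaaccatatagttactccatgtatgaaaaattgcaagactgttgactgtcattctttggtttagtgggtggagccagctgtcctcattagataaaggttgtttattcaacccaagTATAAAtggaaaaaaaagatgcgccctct
HAL holds TGACG 195 and 66 bases before the start, ARG1 holds TATAAA 29 bases before it, and GNMT holds neither. On both strands, the full element TGACGTCA occurs in 1.65% of 35116 promoters of this length and in 0 of the 39 member promoters in the table. TGACG, which TGACGTCA contains, occurs in 21.2% of all and in 8 of the 39 (HAL, CTH, HPD, ASL, OAT, AASS, BCKDHA and BCKDHB). TATAAA occurs in 10.7% of all and in 7 of the 39 (FTCD, BHMT, TDO2, KMO, KYNU, OTC and ARG1). A match describes these letters in this window and is no measurement of binding. Among the 8 genes with TGACG, HAL, HPD, ASL and CTH fell in H89-treated WT, AASS rose, OAT and BCKDHB did not pass, and BCKDHA was not tested. Of all 36 tested members 23 fell there. With the GC and length trends removed, CTH was at 0.06. A link between the motif and the H89 changes was not tested.

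In histidine breakdown, all 4 genes fell with H89 in WT and 3 of 4 in S434A. HAL, histidine ammonia-lyase, removes the amino group of histidine in the first step (ENSG00000084110.11_6; hg19 chromosome 12, 96366440 to 96390143, minus strand). Levels of HAL were, in CPM, 20.9, 22.9 and 21.3 in untreated WT, 4.02, 3.88 and 4.52 in H89-treated WT, 16.1, 18.2 and 16.4 in untreated S434A, and 4.17, 3.30 and 2.70 in H89-treated S434A. The 6 H89 libraries lay far below the 6 without H89, and untreated S434A lay slightly below WT without overlap. The log2 fold change with H89 was -2.39 (SE 0.15, adjusted p = 1.29e-07) in WT, or 5.23-fold lower, and -2.32 (SE 0.15, adjusted p = 7.62e-06) in S434A, and the test of the difference between these effects did not pass (0.07, SE 0.21, adjusted p = 0.806). The smaller genotype difference without H89, -0.36 (SE 0.14, adjusted p = 0.0436), did not pass in 4 of the 12 fits that each left out 1 library, nor with these trends removed (-0.25, adjusted p = 0.0648).

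UROC1, urocanate hydratase, carries out the next step. The UROC1 libraries read, in CPM, 3.82, 3.86 and 4.0 in untreated WT, 1.46, 1.86 and 1.74 in H89-treated WT, 5.49, 4.43 and 2.96 in untreated S434A, and 1.45, 1.39 and 1.37 in H89-treated S434A. The H89 libraries were again below every library without H89, and the 2 genotypes overlapped without H89. The change was -1.20 (SE 0.20, adjusted p = 0.000278) in WT and -1.61 (SE 0.21, adjusted p = 0.000237) in S434A. AMDHD1, imidazolonepropionase, the third enzyme, followed another course. Replicates of AMDHD1 gave CPM of 20.0, 17.4 and 19.8 in untreated WT, 8.37, 9.45 and 9.57 in H89-treated WT, 10.2, 11 and 11.5 in untreated S434A, and 11.8, 10.5 and 10.2 in H89-treated S434A. Only untreated WT was high; the S434A libraries without H89 were already within the range of the H89 libraries. AMDHD1 fell with H89 in WT (-1.06, SE 0.11, adjusted p = 6.18e-06), but in S434A the value was -0.01 (SE 0.11, adjusted p = 0.941). The genotype difference without H89 was -0.81 (SE 0.11, adjusted p = 7.47e-05), and it was -0.19 (adjusted p = 0.129) with the trends removed. AMDHD1 and HAL are neighbours on chromosome 12, on opposite strands with 3941 bases between them, so the genes with the different courses adjoin. FTCD, which passes the formimino group to tetrahydrofolate, stood at 76.9 ± 0.814 CPM in untreated WT, 58.7 ± 4.34 in H89-treated WT, 86.6 ± 14.8 in untreated S434A and 58 ± 2.92 in H89-treated S434A and fell with H89 by 0.39 in WT and 0.58 in S434A. In the trend-corrected fit FTCD was lower in untreated S434A than in untreated WT (-0.38, adjusted p = 7.44e-05), which did not pass before (0.17).

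In the methionine pathway, 6 of 9 genes fell with H89 in WT while 2 rose, and in S434A 6 fell and 1 rose. GNMT, glycine N-methyltransferase, uses up surplus S-adenosylmethionine in liver (ENSG00000124713.6_5; hg19 chromosome 6, 42928492 to 42931618, plus strand). GNMT had CPM values of 45.3, 44.1 and 45.2 in untreated WT, 4.57, 5.66 and 6.60 in H89-treated WT, 21.4, 21.8 and 21.9 in untreated S434A, and 5.88, 5.94 and 5.44 in H89-treated S434A. The groups formed 3 levels without overlap: untreated WT, untreated S434A at about the middle, and the H89 libraries of both genotypes, which overlapped each other. With H89 GNMT was 7.99-fold lower in WT, or -3.0 (SE 0.12, adjusted p = 7.82e-09) in log2 units, and 3.77-fold lower in S434A, -1.91 (SE 0.12, adjusted p = 7.19e-06). Without H89 it was 2.07-fold lower in S434A than in WT (-1.05, SE 0.11, adjusted p = 1.89e-05), and with the trends removed its log2 values were -0.69 here and -2.15 with H89 in WT.

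AHCY hydrolyses S-adenosylhomocysteine, the product of the methyltransferases, and had the highest CPM of the 43 genes in untreated WT. Levels of AHCY were, in CPM, 1660.3, 1656 and 1624 in untreated WT, 666, 660.3 and 669.7 in H89-treated WT, 1183, 1099 and 1125 in untreated S434A, and 654, 658 and 630.2 in H89-treated S434A. The order was the same as for GNMT, with smaller steps. The log2 fold change with H89 was -1.31 (SE 0.05, adjusted p = 4.52e-09) in WT and -0.81 (SE 0.05, adjusted p = 5.37e-06) in S434A, and untreated S434A was at -0.54 (SE 0.05, adjusted p = 3.59e-06) against WT. MAT1A, the liver enzyme that makes S-adenosylmethionine, stood at 207 ± 9.30 CPM in untreated WT, 131 ± 4.80 in H89-treated WT, 231 ± 33.9 in untreated S434A and 154 ± 10.1 in H89-treated S434A; it fell by 0.66 and 0.58 with H89 in WT and S434A, and its genotype difference without H89 did not pass (0.16, SE 0.10, adjusted p = 0.189).

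SARDH and CBS were highest in untreated S434A. SARDH, sarcosine dehydrogenase, returns the methyl group that GNMT places on glycine to the folate pool. The SARDH libraries read, in CPM, 40.2, 39 and 42.1 in untreated WT, 64, 64.9 and 59.3 in H89-treated WT, 133, 99.9 and 69.5 in untreated S434A, and 60.0, 54.6 and 58 in H89-treated S434A. All 3 libraries of untreated S434A lay above the 9 others, untreated WT was lowest, and replicate 1 of untreated S434A was the highest library. SARDH was 2.49-fold higher in untreated S434A than in untreated WT (1.32, SE 0.18, adjusted p = 8.72e-05), or 0.58 on the log2 scale with the trends removed. It rose with H89 in WT (0.63, SE 0.18, adjusted p = 0.00805) and fell in S434A (-0.81, SE 0.18, adjusted p = 0.0043). The rise in WT did not pass without replicate 1 (0.46, adjusted p = 0.0759) or replicate 2 (0.46, adjusted p = 0.0793) of H89-treated WT.

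CBS, cystathionine beta-synthase, commits homocysteine to cysteine synthesis, and was near the limit of measurement. Replicates of CBS gave CPM of 0.932, 0.866 and 0.740 in untreated WT, 1.23, 1.39 and 1.13 in H89-treated WT, 2.69, 1.99 and 1.61 in untreated S434A, and 1.27, 0.929 and 1.17 in H89-treated S434A. They were highest in untreated S434A and lowest in untreated WT. The genotype difference without H89 was 1.30 (SE 0.21, adjusted p = 0.000311), the change with H89 0.56 (SE 0.22, adjusted p = 0.042) in WT and -0.89 (SE 0.21, adjusted p = 0.00569) in S434A. The rise in WT did not pass in 10 of the 12 fits without 1 library, nor with the trends removed (0.15, adjusted p = 0.565), where the genotype difference was 0.62 (adjusted p = 0.00831). Another gene model shares 3927 of its 6786 exon bases, and reads there are assigned to neither, so its level is uncertain. CTH, the enzyme after CBS, was at 21.3 ± 0.486 CPM in untreated WT, 14.4 ± 0.895 in H89-treated WT, 21.2 ± 0.488 in untreated S434A and 16.7 ± 0.594 in H89-treated S434A and fell with H89 by 0.56 in WT and 0.35 in S434A; with the trends removed the value in WT changed sign to 0.06 (adjusted p = 0.71) and CTH was higher in untreated S434A (0.83, adjusted p = 0.000313), where it had no call before (-0.01).

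The remaining genes of this pathway handle methyl groups from choline. BHMT, which remethylates homocysteine from betaine, stood at 10.1 ± 0.865 CPM in untreated WT, 6.42 ± 0.204 in H89-treated WT, 8.07 ± 2.83 in untreated S434A and 5.52 ± 0.591 in H89-treated S434A and fell in WT (-0.65, SE 0.22, adjusted p = 0.0209), while the value in S434A did not pass (-0.55, SE 0.22, adjusted p = 0.0604). Without replicate 3 of untreated WT the fall in WT did not pass either (-0.58, adjusted p = 0.0668). After trend removal the call was in S434A (-0.74, adjusted p = 0.00199) and not in WT (-0.31, adjusted p = 0.0586). Its close relative BHMT2 stood at 54.9 ± 1.75 CPM in untreated WT, 44.1 ± 2.45 in H89-treated WT, 37.5 ± 2.41 in untreated S434A and 43.2 ± 2.47 in H89-treated S434A; it was lower in untreated S434A than in untreated WT (-0.55, SE 0.08, adjusted p = 9.3e-05). The H89 calls of BHMT2 were a fall of 0.32 in WT and a rise of 0.20 in S434A. The rise was lost in 11 of the 12 fits without 1 library, but with the trends removed it was 0.39 (adjusted p = 0.00176). The fall was lost in 0 of the 12 fits, but became 0.05 (adjusted p = 0.595) with the trends removed. DMGDH, dimethylglycine dehydrogenase, stood at 12.7 ± 0.389 CPM in untreated WT, 10.9 ± 1.35 in H89-treated WT, 11.3 ± 2.0 in untreated S434A and 10.8 ± 0.981 in H89-treated S434A and passed in none of the 5 comparisons; with the trends removed it fell with H89 in WT (-0.32, adjusted p = 0.011) and in S434A (-0.61, adjusted p = 0.000716). BHMT2 lies wholly within the span of DMGDH on chromosome 5, and BHMT begins 21739 bases beyond BHMT2.

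**Figure D3:**
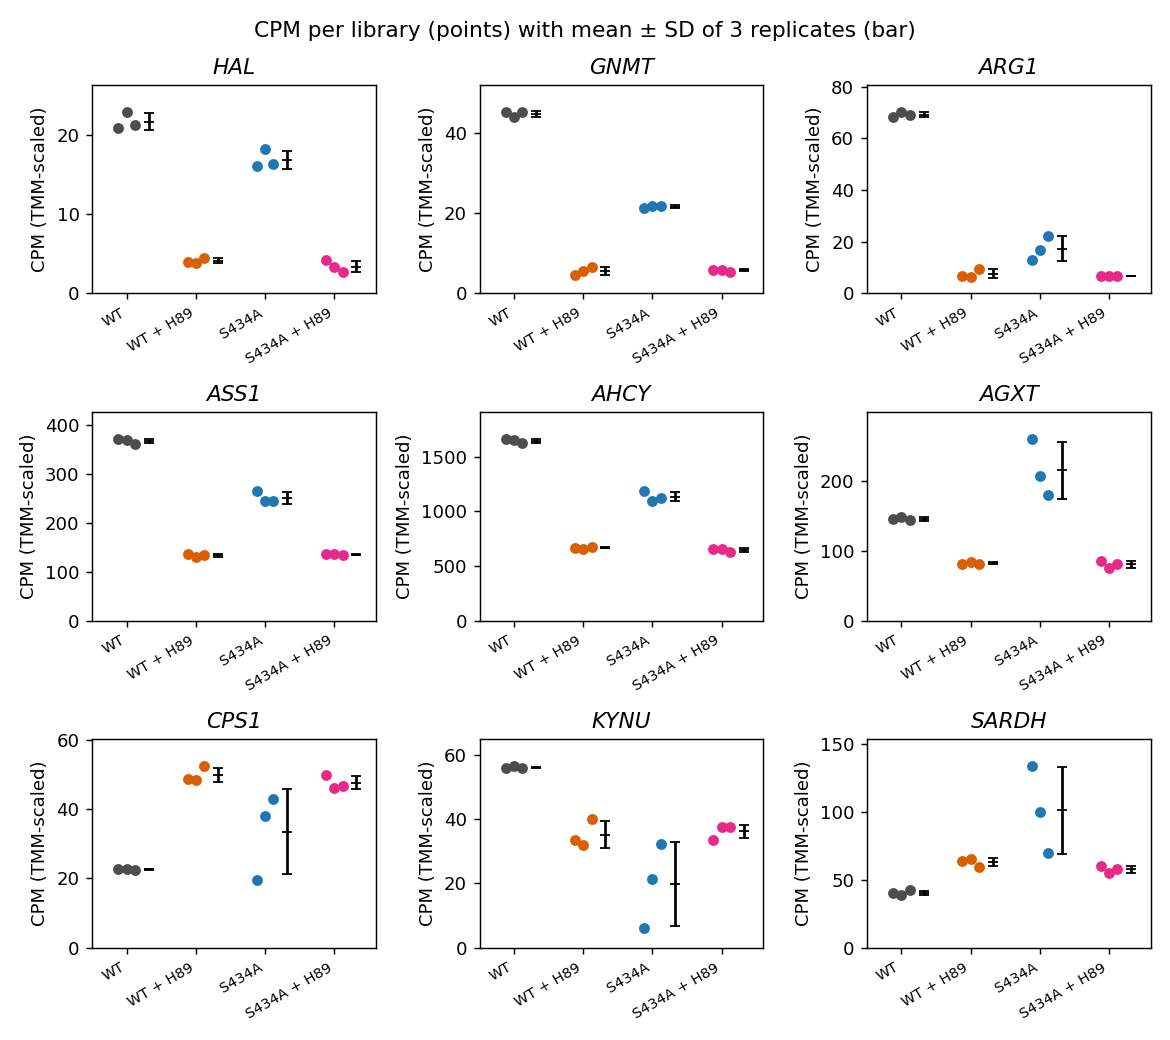
CPM of selected genes in each of the 12 libraries, grouped by genotype and treatment, with each point a library and each black bar the mean ± SD of 3 replicates. Each panel has its own linear axis starting at 0; GNMT, ARG1 and ASS1 step down from untreated WT through untreated S434A to the H89 libraries.

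Of the 4 tyrosine genes, 3 fell with H89 in WT and 4 in S434A. HGD, homogentisate dioxygenase, opens the aromatic ring. HGD had CPM values of 488, 485 and 480.1 in untreated WT, 232, 224 and 232 in H89-treated WT, 309, 311 and 364 in untreated S434A, and 233, 236 and 231 in H89-treated S434A. Untreated WT was highest, untreated S434A intermediate, and the H89 libraries of both genotypes shared a range. The fall with H89 was 2.11-fold in WT (-1.08, SE 0.06, adjusted p = 8.85e-08) and 1.41-fold in S434A (-0.49, SE 0.06, adjusted p = 0.000246). HGD was lower in untreated S434A than in untreated WT (-0.56, SE 0.06, adjusted p = 2.5e-05), a difference that shrank to -0.13 with the trends removed. HPD, which makes homogentisate, was at 566 ± 6.07 CPM in untreated WT, 306 ± 3.28 in H89-treated WT, 500.4 ± 44.4 in untreated S434A and 312 ± 8.86 in H89-treated S434A and fell by 0.89 in WT and 0.68 in S434A; with the trends removed the values were -0.27 and -0.24. The genotype difference of HPD without H89 (-0.18, SE 0.06, adjusted p = 0.0297) was lost in 4 of the 12 fits without 1 library. TAT, tyrosine aminotransferase, the first enzyme and a classic glucocorticoid- and cAMP-responsive gene, was at 17.5 ± 0.745 CPM in untreated WT, 10.7 ± 1.16 in H89-treated WT, 13.8 ± 0.309 in untreated S434A and 9.74 ± 0.137 in H89-treated S434A and fell by 0.71 in WT and 0.51 in S434A. TAT was lower in untreated S434A (-0.34, SE 0.10, adjusted p = 0.0117), but at 0.03 (adjusted p = 0.89) with the trends removed. FAH, the last enzyme, was at 56.1 ± 1.43 CPM in untreated WT, 47.3 ± 1.98 in H89-treated WT, 64.2 ± 13.9 in untreated S434A and 48 ± 1.75 in H89-treated S434A, passed in H89-treated S434A (-0.42, SE 0.12, adjusted p = 0.0159) and did not pass in WT (-0.24, SE 0.12, adjusted p = 0.0956), but with the trends removed it fell in WT too (-0.49, adjusted p = 0.00016).

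Of the tryptophan pathway only the later steps were measurable. TDO2, the hepatic dioxygenase that starts it, had 2 counts over the 12 libraries, and KMO, kynurenine monooxygenase, had 6. KYNU, kynureninase, varied widely between the replicates of untreated S434A. Levels of KYNU were, in CPM, 55.8, 56.3 and 55.8 in untreated WT, 33.4, 32 and 40.1 in H89-treated WT, 6.03, 21.5 and 32.1 in untreated S434A, and 33.6, 37.4 and 37.4 in H89-treated S434A. Untreated WT was high and tight, untreated S434A spread from the lowest library upward, and the H89 libraries lay between. KYNU was lower in untreated S434A (-1.49, SE 0.41, adjusted p = 0.00983), and its H89 changes did not pass in WT (-0.67, SE 0.40, adjusted p = 0.16) or S434A (0.86, SE 0.41, adjusted p = 0.102). With the trends removed it fell with H89 in both genotypes, with values of -1.41 (adjusted p = 1.84e-09) and -0.47 (adjusted p = 0.000225) on the log2 scale. HAAO makes the precursor of quinolinate and NAD. The HAAO libraries read, in CPM, 47.3, 50.7 and 47.8 in untreated WT, 22.4, 23.8 and 23.6 in H89-treated WT, 40.1, 34.5 and 36.8 in untreated S434A, and 23.9, 24 and 24 in H89-treated S434A. The 4 groups again formed 3 separate levels. HAAO fell with H89 in WT (-1.06, SE 0.07, adjusted p = 3.11e-07) and S434A (-0.63, SE 0.07, adjusted p = 0.000131) and was lower in untreated S434A (-0.39, SE 0.07, adjusted p = 0.000852).

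In the urea cycle 4 of 5 tested genes fell with H89 in both genotypes, and CPS1 was the exception. The summed level of the 6 genes was 554 ± 5.33 CPM in untreated WT, 237 ± 6.50 in H89-treated WT, 376 ± 3.11 in untreated S434A and 237 ± 1.91 in H89-treated S434A. ARG1, arginase, releases urea in the last step (ENSG00000118520.15_5; hg19 chromosome 6, 131791972 to 131905472, plus strand). Replicates of ARG1 gave CPM of 68.2, 70.1 and 69.1 in untreated WT, 6.90, 6.25 and 9.57 in H89-treated WT, 12.9, 16.8 and 22.4 in untreated S434A, and 6.80, 6.64 and 6.65 in H89-treated S434A. Untreated WT stood far above the rest, untreated S434A came next with no overlap, and the H89 libraries of both genotypes were lowest. With H89 ARG1 was 9.13-fold lower in WT (-3.19, SE 0.20, adjusted p = 1.48e-07) and 2.60-fold lower in S434A (-1.38, SE 0.20, adjusted p = 0.000417). Without H89 it was 3.98-fold lower in S434A (-1.99, SE 0.19, adjusted p = 8.48e-06), and with the trends removed the log2 values were -1.08 (adjusted p = 7.73e-07) here and -2.48 (adjusted p = 7.5e-10) with H89 in WT. From the counts as deposited ARG1 had the lowest of the 36 fold changes between the untreated genotypes, and with the trends removed ASL was lower.

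ASS1, argininosuccinate synthase, joins citrulline and aspartate. ASS1 had CPM values of 370.3, 368 and 362 in untreated WT, 137, 131 and 134 in H89-treated WT, 265, 244 and 244 in untreated S434A, and 136, 135 and 134 in H89-treated S434A. ASL, which splits argininosuccinate, had CPM values of 87.4, 85.5 and 86.6 in untreated WT, 41.5, 37.8 and 39.9 in H89-treated WT, 63.8, 62.1 and 62.1 in untreated S434A, and 39.6, 40.6 and 41.1 in H89-treated S434A. Both genes stepped down in the same 3 levels, with tight replicates and no overlap between the levels. ASS1 fell with H89 by 2.74-fold in WT (-1.46, SE 0.05, adjusted p = 4.42e-09) and 1.86-fold in S434A (-0.89, SE 0.05, adjusted p = 5.37e-06), and ASL by 2.18-fold (-1.12, SE 0.06, adjusted p = 2.82e-08) and 1.55-fold (-0.63, SE 0.06, adjusted p = 3.17e-05). Without H89, S434A was at -0.55 (SE 0.05, adjusted p = 6.15e-06) for ASS1 and -0.47 (SE 0.06, adjusted p = 3.91e-05) for ASL against WT. In the trend-corrected fit ASL was at -1.11 (adjusted p = 1.28e-06) between the untreated genotypes, past 2-fold.

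CPS1, the mitochondrial enzyme that fixes ammonia and sets the entry rate of the cycle, moved the other way. Levels of CPS1 were, in CPM, 22.6, 22.8 and 22.4 in untreated WT, 48.7, 48.4 and 52.3 in H89-treated WT, 19.5, 38.1 and 43 in untreated S434A, and 49.7, 46.2 and 46.8 in H89-treated S434A. Untreated WT was low, the H89 libraries of both genotypes were high, and in untreated S434A replicate 1 lay below WT while replicates 2 and 3 lay near the H89 range. CPS1 rose 2.20-fold with H89 in WT (1.14, SE 0.22, adjusted p = 0.000772) and did not pass in S434A (0.50, SE 0.22, adjusted p = 0.0706). CPS1 has the longest exon total of the urea cycle genes, 11018 bases, and after correction for these trends the rise in WT was 0.32 (adjusted p = 0.000741) and the value in S434A turned to -0.27 (adjusted p = 0.00591). Its genotype difference without H89 (0.57, SE 0.22, adjusted p = 0.0431) was lost in 11 of the 12 fits without 1 library, and with the trends removed it was 0.52 (adjusted p = 2.67e-05). NAGS makes the activator of CPS1 and was at 9.24 ± 0.774 CPM in untreated WT, 6.52 ± 0.393 in H89-treated WT, 11.8 ± 2.68 in untreated S434A and 7.57 ± 0.423 in H89-treated S434A. It fell with H89 in WT (-0.50, SE 0.16, adjusted p = 0.0161) and in S434A (-0.63, SE 0.16, adjusted p = 0.00856), although the fall in WT did not pass without replicate 1 of untreated WT (-0.46, adjusted p = 0.054) and that in S434A not with the trends removed (-0.22, adjusted p = 0.109). OTC, which makes citrulline, had 33 counts over all libraries and was not tested.

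Glutamate, proline and ornithine enzymes were less uniform. GLUD1, glutamate dehydrogenase, frees ammonia from glutamate and ranked second per exon length in untreated WT and first in both H89 groups. Its level was 1143 ± 14.3 CPM in untreated WT, 652 ± 36.6 in H89-treated WT, 823 ± 31.5 in untreated S434A and 637 ± 17.3 in H89-treated S434A. It fell with H89 in WT (-0.81, SE 0.05, adjusted p = 2.41e-07) and S434A (-0.37, SE 0.05, adjusted p = 0.00051) and was lower in untreated S434A (-0.47, SE 0.05, adjusted p = 2.85e-05), which became -0.13 (adjusted p = 0.0825) with the trends removed. PRODH2 oxidises hydroxyproline. The PRODH2 libraries read, in CPM, 101, 103 and 98.1 in untreated WT, 40.4, 44.6 and 46.7 in H89-treated WT, 97.4, 83.5 and 78.5 in untreated S434A, and 49.5, 42.2 and 52.6 in H89-treated S434A. The H89 libraries were low in both genotypes, and untreated S434A lay below WT by a difference that did not pass (-0.22, SE 0.10, adjusted p = 0.0863) but did with the trends removed (-0.54, adjusted p = 0.000119). PRODH2 fell 2.29-fold with H89 in WT (-1.20, SE 0.10, adjusted p = 1.72e-06) and 1.80-fold in S434A (-0.85, SE 0.10, adjusted p = 0.000162).

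ALDH4A1, shared by proline and hydroxyproline breakdown, stood at 158 ± 3.02 CPM in untreated WT, 167 ± 4.18 in H89-treated WT, 221 ± 42 in untreated S434A and 164 ± 5.25 in H89-treated S434A. It was higher in untreated S434A than in untreated WT (0.48, SE 0.11, adjusted p = 0.00279), fell with H89 in S434A (-0.43, SE 0.11, adjusted p = 0.00882) and had 0.08 (SE 0.11, adjusted p = 0.506) in WT. With the trends removed neither call passed (0.10, adjusted p = 0.097, and -0.02, adjusted p = 0.743). OAT, ornithine aminotransferase, was at 95.3 ± 0.424 CPM in untreated WT, 82.6 ± 9.57 in H89-treated WT, 55.5 ± 19.2 in untreated S434A and 83.9 ± 6.77 in H89-treated S434A, with the lowest library in replicate 1 of untreated S434A. It was lower in untreated S434A (-0.78, SE 0.20, adjusted p = 0.00595) and rose with H89 in S434A (0.60, SE 0.20, adjusted p = 0.028), and with the trends removed both values changed sign, to 0.07 (adjusted p = 0.466) and -0.07 (adjusted p = 0.495). GLS2, the liver glutaminase, was below 3 CPM in every library, at 1.65 ± 0.148 CPM in untreated WT, 1.59 ± 0.149 in H89-treated WT, 2.01 ± 0.640 in untreated S434A and 1.61 ± 0.145 in H89-treated S434A, and passed in no comparison. The opposite-strand gene SPRYD4 overlaps 3194 of its 4141 exon bases. PRODH, proline dehydrogenase, had 89 counts in all and was not tested.

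In serine and glycine metabolism, AGXT and GLDC were higher in untreated S434A and GCSH was lower. AGXT, the peroxisomal aminotransferase that detoxifies glyoxylate, had CPM values of 146, 149 and 144 in untreated WT, 81.2, 83.6 and 81.4 in H89-treated WT, 260.1, 208 and 179 in untreated S434A, and 85.7, 75.6 and 81.9 in H89-treated S434A. Untreated S434A was above every other library and the H89 libraries were below every library without H89. AGXT was 1.48-fold higher in untreated S434A than in untreated WT (0.56, SE 0.11, adjusted p = 0.00112) and fell with H89 by 1.78-fold in WT (-0.83, SE 0.11, adjusted p = 5.43e-05) and 2.66-fold in S434A (-1.41, SE 0.11, adjusted p = 1.78e-05). Its difference between the untreated genotypes was 0.27 (adjusted p = 0.000757) with the trends removed.

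GLDC and GCSH are subunits of the glycine cleavage system, the decarboxylase and the lipoyl carrier. GLDC was at 95.8 ± 3.18 CPM in untreated WT, 136 ± 3.68 in H89-treated WT, 149 ± 20.7 in untreated S434A and 121 ± 5.82 in H89-treated S434A, higher in untreated S434A (0.63, SE 0.09, adjusted p = 0.00013), and changed with H89 by 0.50 (SE 0.09, adjusted p = 0.00052) in WT and -0.29 (SE 0.09, adjusted p = 0.0202) in S434A. With the trends removed the change in WT did not pass (0.09, adjusted p = 0.171), and the difference between the untreated genotypes was 0.16 (adjusted p = 0.0332). GCSH had CPM values of 16.8, 18.8 and 18.7 in untreated WT, 4.43, 4.81 and 5.56 in H89-treated WT, 3.82, 5.32 and 7.74 in untreated S434A, and 5.17, 7.06 and 5.80 in H89-treated S434A. Only the 3 libraries of untreated WT were high, and the other 9 shared a low range. GCSH fell 3.66-fold with H89 in WT (-1.87, SE 0.22, adjusted p = 2.04e-05) and was 3.21-fold lower in untreated S434A (-1.68, SE 0.22, adjusted p = 6.71e-05), or -0.86 with the trends removed. In S434A its H89 value did not pass (0.09, SE 0.22, adjusted p = 0.743), and with the trends removed it was -0.65 (adjusted p = 0.00171). Gene models on the same strand share 430 and 442 of its 3640 exon bases, and near-copies of GCSH exist in the genome, so its absolute level is uncertain. SHMT1, the cytosolic enzyme that interconverts serine and glycine, was at 89.3 ± 0.616 CPM in untreated WT, 76.2 ± 3.86 in H89-treated WT, 87.2 ± 6.89 in untreated S434A and 76.1 ± 1.24 in H89-treated S434A and fell little, by 0.23 in WT and 0.19 in S434A. The fall in S434A was lost without replicate 1 of untreated S434A (-0.15, adjusted p = 0.101), without replicate 1 of untreated WT (-0.20, adjusted p = 0.0504) and with the trends removed (-0.04, adjusted p = 0.59). In that fit SHMT1 was lower in untreated S434A (-0.46, adjusted p = 7.08e-06). SDS, serine dehydratase, had 7 counts in all, and AMT, the aminomethyltransferase of the cleavage system, had 63, with most of its exon bases shared with another gene model.

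AASS rose with H89 in both genotypes. It starts lysine breakdown in mitochondria and had CPM values of 8.29, 8.62 and 7.59 in untreated WT, 17.1, 19 and 21.7 in H89-treated WT, 3.55, 11.4 and 12 in untreated S434A, and 20.6, 18.5 and 16.8 in H89-treated S434A. The 6 H89 libraries lay above the 6 others, and replicate 1 of untreated S434A was the lowest library. AASS rose 2.36-fold in WT (1.24, SE 0.34, adjusted p = 0.00719) and 2.08-fold in S434A (1.05, SE 0.34, adjusted p = 0.0243). The rise in S434A did not pass in 6 of the 12 fits without 1 library, and was 0.42 (adjusted p = 0.0684) with the trends removed. For the branched-chain amino acids, BCAT2, the mitochondrial aminotransferase, was at 5.83 ± 0.522 CPM in untreated WT, 5.13 ± 0.348 in H89-treated WT, 8.48 ± 1.29 in untreated S434A and 5.33 ± 0.445 in H89-treated S434A; it was higher in untreated S434A (0.54, SE 0.14, adjusted p = 0.00524), a difference of 0.01 with the trends removed (adjusted p = 0.976), and fell with H89 in S434A (-0.67, SE 0.14, adjusted p = 0.00312). BCKDHB, a subunit of the branched-chain ketoacid dehydrogenase, was at 8.86 ± 0.604 CPM in untreated WT, 8.98 ± 0.838 in H89-treated WT, 8.27 ± 1.45 in untreated S434A and 10.6 ± 0.340 in H89-treated S434A. Its rise with H89 in S434A (0.36, SE 0.14, adjusted p = 0.0485) was lost in 11 of the 12 fits without 1 library and turned to a fall, -0.52 (adjusted p = 0.0251) with the trends removed, where BCKDHB was also higher in untreated S434A (0.74, adjusted p = 0.00238). The partner subunit BCKDHA had 46 counts in all; another gene model shares 1660 of its 2251 exon bases, where reads are assigned to neither.

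Whether H89 acted alike in both genotypes was tested as the difference of the H89 effects, S434A minus WT. This difference passed for 18 of the 36 genes, positive for 13 and negative for 5, where 24% of all genes were positive and 24% negative. A positive value means a smaller fall or a larger rise in S434A. The difference also equals the genotype difference with H89 minus that without H89, so it is no separate result from the comparison of the untreated genotypes. The differences over 2-fold were positive for 5 genes and negative for 2, against 11.8% and 12.4% of all genes. The positive ones were GCSH (1.97, SE 0.31, adjusted p = 0.00044), ARG1 (1.82, SE 0.27, adjusted p = 0.000319), KYNU (1.53, SE 0.58, adjusted p = 0.0489), GNMT (1.08, SE 0.17, adjusted p = 0.00035) and AMDHD1 (1.05, SE 0.15, adjusted p = 0.00025). The negative ones were CBS (-1.46, SE 0.30, adjusted p = 0.00242) and SARDH (-1.44, SE 0.25, adjusted p = 0.000769), which rose with H89 in WT and fell in S434A. The comparison of the untreated genotypes uses the same untreated libraries; its log2 fold changes were -1.68 for GCSH, -1.99 for ARG1, -1.49 for KYNU, -1.05 for GNMT and -0.81 for AMDHD1. KYNU was lost in 10 of the 12 fits without 1 library. With the trends removed, 12 differences were positive and 6 negative (21.2% and 26.6% of all genes), of which 2 and 0 were over 2-fold (5.92% and 6.97%). GCSH was then at 1.05, ARG1 at 0.84 and AMDHD1 at 0.38 (adjusted p = 0.0514). ASL, at 0.49 before, had the highest value, 1.17 (adjusted p = 3.09e-05), and the negative CBS and SARDH shrank to -0.74 and -0.67.

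With H89 present, no genotype difference passed for any of the 36 genes. No gene of the 36, and none of the 14434, passed edgeR's quasi-likelihood test for H89-treated S434A against H89-treated WT, so 0% of all genes were called. At an unadjusted p under 0.05 there were 3 of the 36 and 589 of all genes, and DESeq2 called 0 of the 36 and 2 of all genes. With only the compared groups fitted, edgeR's test had 5 members and 1593 of 13917 genes at an unadjusted p under 0.05. After adjustment 0 genes passed there. The libraries of the genotypes did not overlap for 6 genes, higher in S434A, and 4, lower, against 8.78% and 8.45% of all genes. The 36 log2 fold changes ran from -0.29 to 0.28 with a median of 0.01. For ARG1 the value was -0.18 (SE 0.20), for GNMT 0.04 (SE 0.12), for GCSH 0.28 (SE 0.22) and for SARDH -0.12 (SE 0.18). The SE limits how small a difference could have been seen. It can be too large here, because the fit shares the spread of untreated S434A. These values do not show that the genotypes are alike.

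Per kilobase of exon, a scale for a rough comparison between genes, the levels spanned a wide range. The length counts all exon bases of a gene, including those shared with other gene models. These were 3927 of 6786 for CBS and 3194 of 4141 for GLS2, so the levels of both can be too low. In untreated WT, AHCY had 423 CPM per kb, GLUD1 302, HPD 255, HGD 181 and ASS1 122, while GLS2 had 0.399 and CBS 0.125. Among the 43 genes GNMT went from rank 8 in untreated WT to rank 20 with H89, ARG1 from 11 to 23, and CPS1 from 31 to 21. Per length, CPS1 was at 2.05 CPM per kb in untreated WT and 4.52 with H89, below ASS1 at 44.3 in that group.

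**Figure D4:**
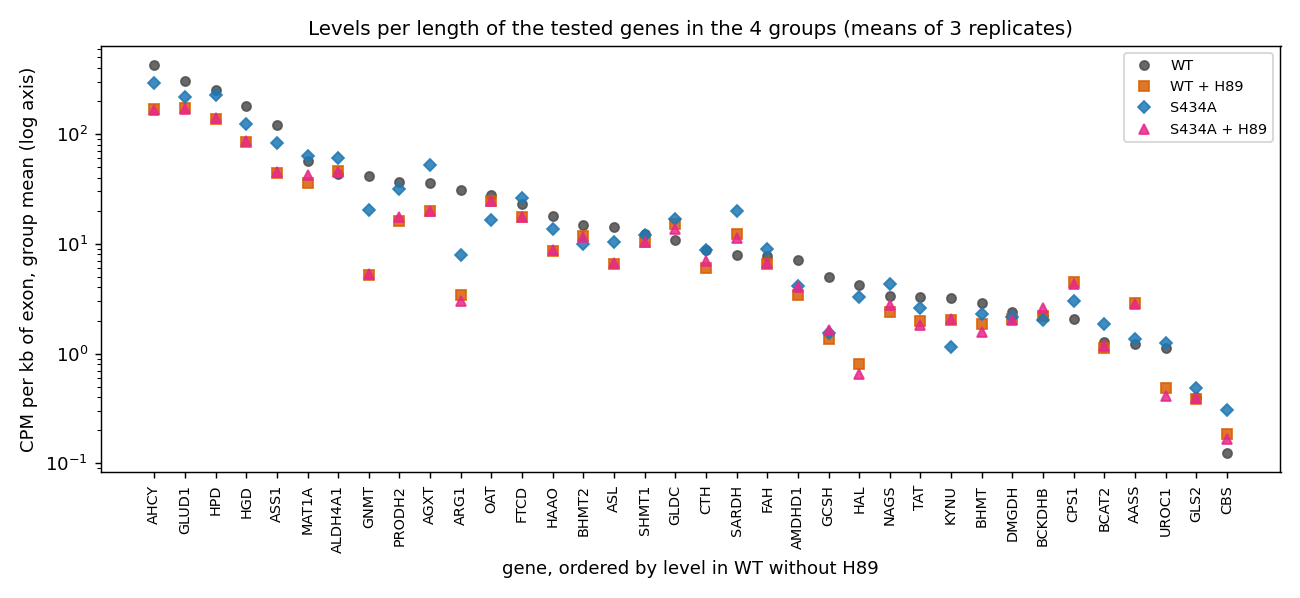
Group mean level per kilobase of exon of the tested genes, on a log axis, ordered by the level in untreated WT. The length includes exon bases shared with other gene models, so the levels of CBS and GLS2 can be too low. The 4 markers of a gene are the 4 groups; for GNMT and ARG1 the 2 H89 markers lie well below the WT marker without H89, and for CPS1 and AASS above it.

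Gene length and GC content moved with part of these differences. Across the 36 genes, the Spearman correlation of the log2 fold change with GC content was 0.43 for untreated S434A against untreated WT, -0.06 for H89 in WT and -0.64 for H89 in S434A, and with length 0.42, 0.55 and 0.35. Genes are not independent replicates, and these values describe the tables only. After a smooth trend in GC content and length was removed from each library, the correlations with GC were -0.14, -0.08 and 0.16. Those with length were 0.25, 0.28 and 0.13. With H89 in WT 24 genes then fell and 3 rose (30.8% and 42.4% of all genes), in S434A 28 fell and 1 rose (19.3% and 24.8%), and between the untreated genotypes 13 were lower and 7 higher (26% and 32.7%). Of the 23 calls in untreated S434A against untreated WT, 15 kept their call and direction, 6 did not pass and 2 changed sign. Of the 28 calls with H89 in WT, 23 were kept, 3 did not pass and 2 changed sign, and of the 29 in S434A the numbers were 23, 4 and 2. In the scatter of both sets of fold changes, ARG1, GNMT, HAL, GCSH and ASL remained more than 2-fold lower with H89 in WT, while CPS1 and SARDH moved toward 0, from 1.14 to 0.32 and from 0.63 to 0.23. Whether the trends come from RNA quality, library preparation or the cells was not tested.

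**Figure D5:**
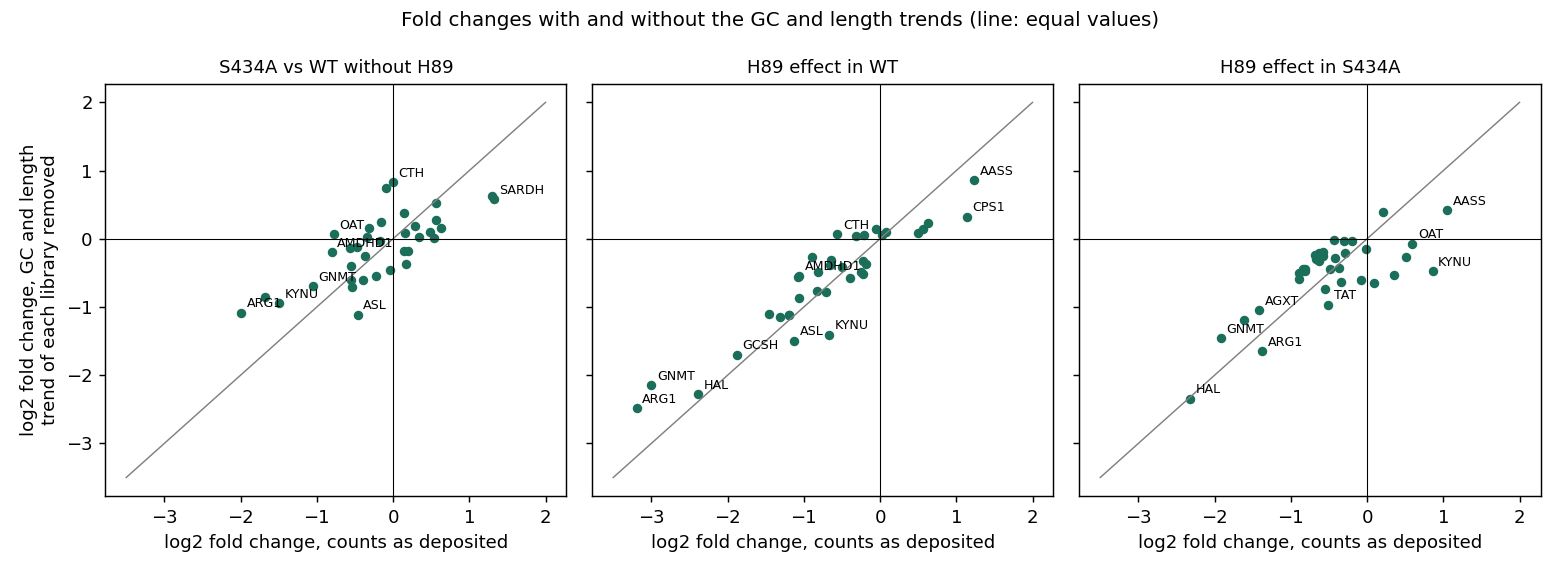
Log2 fold change of each tested gene from the counts as deposited (horizontal) and after the GC and length trend of each library was removed (vertical), in 3 comparisons, with a line of equal values. Points near the line are little changed; HAL and ARG1 remain below -1 on both axes with H89 in WT, at -2.28 and -2.48 after removal.

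Other enzymes of amino acid metabolism, from a list of 46 further genes of which 45 were tested, moved in both directions. In WT 20 fell and 9 rose with H89 (30.9% and 38.8% of all genes), in S434A 17 fell and 12 rose (22.7% and 29.3%), and without H89 16 were lower and 7 higher in S434A (29.3% and 29%). After trend removal 19 fell and 15 rose in WT (30.8% and 42.4% of all genes) and 12 fell and 10 rose in S434A (19.3% and 24.8%). Without H89 19 were then lower and 10 higher (26% and 32.7%). The median log2 fold change of the 45 with H89 was -0.16 in WT and -0.08 in S434A, nearer to 0 than that of the 36 members. The difference of the H89 effects was positive for 13 and negative for 5, where 24% of all genes were positive and 24% negative. PCCB, a subunit of propionyl-CoA carboxylase, fell from 245 to 101 CPM with H89 in WT (-1.28, SE 0.05, adjusted p = 6.04e-09) and was at 142 CPM in untreated S434A (-0.79, SE 0.05, adjusted p = 5.76e-07). IVD of leucine breakdown (-1.16, SE 0.06, adjusted p = 2.8e-08) and SHMT2, the mitochondrial serine hydroxymethyltransferase (-1.14, SE 0.07, adjusted p = 1.79e-07), also fell by over 2-fold in WT. Among the genes with the smallest p in S434A were PYCR1 of proline synthesis (-0.86, SE 0.07, adjusted p = 2.61e-05), SHMT2 (-0.84, SE 0.07, adjusted p = 2.85e-05) and GCDH of lysine breakdown (-0.78, SE 0.08, adjusted p = 7.74e-05). Without H89, PCCB, IVD (-0.58, SE 0.06, adjusted p = 1.08e-05) and ALDH7A1 of lysine breakdown (-0.40, SE 0.05, adjusted p = 4.57e-05) were lower in S434A. The H89 effects of PCCB (0.84, SE 0.07, adjusted p = 9.56e-06), IVD (0.74, SE 0.08, adjusted p = 5e-05) and the sulfide-oxidising ETHE1 (0.76, SE 0.14, adjusted p = 0.000868) differed between the genotypes.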

How the data were processed

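RNA sequencing of HepG2 cells was used in 4 groups of 3 biological replicates. The authors deposited whole read counts per gene, made with featureCounts 2.0.1 over exons of an hg19 annotation, per the file headers, which set no option for strand or for overlapping genes. Alignment with Bowtie 0.12.2 to hg19 is named per the submitters' processing notes. The sources used here do not give trimming, library kit or strandedness. Exon lengths and positions are those of the deposited table. GC content and symbols were matched by unversioned identifier (58676 of 62475 had a symbol; 14279 of 14434 tested genes and all 43 members had a GC value).

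A single model in edgeR 4.0.16 (R 4.3.3) held all 12 libraries: TMM factors, filterByExpr by group (minimum count 10), robust quasi-likelihood F tests, no block, and Benjamini-Hochberg adjustment over all genes tested in each of 5 comparisons. CPM values are TMM-scaled. Beside adjusted p under 0.05, the study's fold over 2 was used. Alternatives were DESeq2 1.42.0, limma-voom (limma 3.58.1), other scaling factors and filters, the compared groups alone, leaving out each library, a replicate block, and removal of a smooth GC and length trend (splines with 5 degrees of freedom) from each library; the last with replicate 1 of S434A without H89 left out was added after seeing the data. Same-numbered libraries did not deviate together in every pair (correlations from -0.153 to 0.31), so the numbers were not taken as pairs. The fit was also run on simulated counts. These gave each gene the same spread in all groups and held no GC or length trend. That run therefore does not test the calls under the uneven spread of these groups. Values per library were given for members with a fold over 2 and an adjusted p under 0.05 in at least 1 comparison and at least 2 CPM in the highest group, and group means for the others. From each further list, up to 4 genes with the smallest p per comparison were named. A gene that this rule also picked is not reported here. The members and lists were chosen with earlier results of these data known.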

Additional observations from a re-analysis of the deposited data

Results flagged for a closer look

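For 18 genes the effect of H89 differed between the genotypes by the test of that difference itself (edgeR's quasi-likelihood test, adjusted p under 0.05). In log2 units, S434A minus WT, it was positive for GCSH (1.97), ARG1 (1.82), KYNU (1.53), GNMT (1.08), AMDHD1 (1.05), OAT (0.80), HGD (0.59), ASS1 (0.56), BHMT2 (0.52), AHCY (0.50), ASL (0.49), GLUD1 (0.44) and HAAO (0.43). It was negative for CBS (-1.46), SARDH (-1.44), GLDC (-0.80), AGXT (-0.58) and ALDH4A1 (-0.51). This difference equals the genotype difference with H89, for which no gene passed the same test, minus that without H89. Each of the 18 was also called between the untreated genotypes, in the opposite direction, at -1.99 for ARG1 and 1.32 for SARDH. The 2 sets of calls are therefore not separate results. After correction for GC and length trends, 13 of the 18 kept their call, AMDHD1, HGD, GLUD1 and ALDH4A1 did not pass, and OAT changed sign. All tested groups hold 3 libraries, so single libraries that stand apart were not flagged.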

How the results depend on the processing

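Of 98 member calls, 94 kept call and direction with DESeq2, 97 with limma-voom, 93 with RLE and 93 with upper-quartile factors, 89 without a filter, 98 with a filter of 1 CPM in 3 libraries, 60 of 80 in fits of only the groups compared, and 74 with GC and length trends corrected. Genes that rose with H89 in S434A, 4 as reported, were 1 with RLE factors, 1 with upper-quartile factors, 2 with DESeq2, 0 without a filter, 0 in the compared groups alone and 1 with the trends removed. Those that rose in WT, 5 as reported, were 3 with the trends removed. Genes lower in untreated S434A, 16 as reported, were 10 in the compared groups alone. With RLE factors the median log2 fold change of all genes for H89 in WT was 0.05 in place of 0.20.

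Leaving out 1 library gave 6 to 11 genes higher in untreated S434A (11 without its replicate 3), 3 to 5 that rose with H89 in WT (3 without replicate 1 or 2 of H89-treated WT), 0 to 6 that rose with H89 in S434A (6 without replicate 3 of untreated S434A, 0 without any 1 library of either H89 group), and 4 to 8 negative differences of H89 effects (8 without replicate 3 of untreated S434A).

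Same-numbered libraries did not deviate together in every pair, and in the 4 comparisons of 2 groups 3, 3, 3 and 2 of 6 libraries correlated best with their own number. With the replicate number as a block, 95 of the 98 calls stayed; HAL (-0.36, adjusted p = 0.0632) and CPS1 (0.54, adjusted p = 0.0631) between the untreated genotypes and BHMT2 with H89 in S434A (adjusted p = 0.0633) did not pass.

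Signs changed with the trends removed, with them removed beside the replicate block, and with them removed and replicate 1 of untreated S434A left out (chosen after seeing the data), in this order. Between the untreated genotypes OAT was at 0.0705, 0.0678 and 0.0181, and TAT at 0.0254 and 0.019 in the first pair. HPD was at 0.0036 under the last, and at 0.0327 in the compared groups alone. With H89 in WT, BHMT2 was at 0.0462, 0.0458 and 0.0918 and CTH at 0.0633, 0.0651 and 0.0795. With H89 in S434A, BCKDHB was at -0.524, -0.529 and -0.285 and OAT at -0.0711 and -0.0672. The difference of H89 effects for OAT was -0.130, -0.126 and -0.0678. The last of these settings also gave 1 gene that rose in S434A and 8 negative differences; with the block and the trends together 3 rose in WT and 1 in S434A. The cause was not tested.

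Genes under 3 CPM (CBS, GLS2) and the 7 untested genes had few counts. For CBS, GLS2, AMT and BCKDHA among them, most exon bases are shared with another gene model, so low counts there need not mean low RNA. Sequencing batches, strand and the amount of protein were not analysed here.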

Other observations

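Amino acid transporters and mitochondrial carriers moved in part differently from the enzymes. With H89 in WT, 11 of the 16 tested rose and 1 fell, where 38.8% and 30.9% of all genes did. In untreated S434A against untreated WT 10 were higher and 2 lower (29% and 29.3% of all genes), and in S434A 5 rose and 4 fell with H89 (29.3% and 22.7%). SLC7A1, a cationic amino acid transporter, went from 47.3 CPM in untreated WT to 115 with H89 (1.28, SE 0.15, adjusted p = 1.6e-05) and was at 133 in untreated S434A (1.49, SE 0.15, adjusted p = 9.7e-06). SLC7A5, which imports large neutral amino acids, was 2.78-fold higher in untreated S434A (1.47, SE 0.17, adjusted p = 3.59e-05), the glutamine transporter SLC38A3 2.77-fold (1.47, SE 0.18, adjusted p = 5.31e-05) and the mitochondrial glutamate carrier SLC25A22 2.43-fold (1.28, SE 0.16, adjusted p = 5.54e-05). SLC25A15, the ornithine carrier of the urea cycle, fell with H89 in WT (-0.90, SE 0.09, adjusted p = 6.8e-06) and S434A (-0.36, SE 0.09, adjusted p = 0.0084). In S434A with H89, SLC38A1 (1.51, SE 0.44, adjusted p = 0.0167) and the aspartate-glutamate carriers SLC25A12 (0.54, SE 0.14, adjusted p = 0.0094) and SLC25A13 (0.26, SE 0.06, adjusted p = 0.00543) rose. With the GC and length trends removed, H89 in WT raised 13 and lowered 2 of the 16, and in S434A 1 rose and 2 fell; SLC7A5 and SLC25A22 were then at 0.85 and 0.58 between the untreated genotypes and SLC38A1 at 0.53 with H89 in S434A, and SLC25A12 and SLC25A13 had no call in S434A (0.07, adjusted p = 0.464, and adjusted p = 0.983).

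Among 10 tested regulators of these enzyme genes, 8 were raised and 1 lowered by H89 in WT (38.8% and 30.9% of all genes), and 7 were higher and 0 lower in untreated S434A (29% and 29.3%). CREB3L3, a liver factor active in fasting, went from 21.3 to 41.5 CPM in WT (0.96, SE 0.09, adjusted p = 3.58e-06) and was at 38.9 CPM in untreated S434A (0.87, SE 0.09, adjusted p = 1.48e-05). FOXO1, which responds to insulin, rose with H89 in WT (1.45, SE 0.12, adjusted p = 1.01e-06) and was higher in untreated S434A (0.93, SE 0.12, adjusted p = 5.12e-05), as were HNF4A (1.11, SE 0.13, adjusted p = 1.87e-05, and 1.0, SE 0.13, adjusted p = 6.18e-05) and FOXA2 without H89 (1.08, SE 0.13, adjusted p = 3.59e-05). PPARA rose with H89 in WT (1.21, SE 0.14, adjusted p = 2.12e-05) and S434A (0.89, SE 0.14, adjusted p = 0.000874). In S434A, 3 rose and 2 fell with H89 (29.3% and 22.7% of all genes), among them the glucocorticoid receptor NR3C1 (1.88, SE 0.42, adjusted p = 0.00479), KLF15 (-0.38, SE 0.11, adjusted p = 0.0139) and NR1I3 (-0.56, SE 0.18, adjusted p = 0.0215). After trend removal 6 rose and 0 fell there (24.8% and 19.3% of all genes), with KLF15 at 0.05 (adjusted p = 0.562), NR1I3 at -0.23 (adjusted p = 0.302) and NR3C1 at 0.71 (adjusted p = 9.79e-05), and PPARA was at 0.45 (adjusted p = 0.000986) in WT. The adjusted p-values are from edgeR's quasi-likelihood test over all genes tested.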
